A study of Mus musculus with 24 samples.

Results

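Expression of 8 integrin chains of leukocytes was described across the populations of a mouse acute myeloid leukaemia (AML): Itgam (integrin αM, the CD11b chain of Mac-1), Itgal (αL), Itgb2 (β2), Itga4 (α4), Itga5 (α5), Itga6 (α6), Itgb1 (β1) and Itgb7 (β7). They were chosen by symbol, as leukocyte integrin chains together with the gene of the Mac-1 sort marker, and are 8 of the 23361 gene rows of the deposited table. RNA had been sequenced from NRASG12V/Mll-AF9 AML cells of (FVB/n X C57/BL/6J) F1 mice, taken from the spleen, in 24 libraries. Sorting on Mac-1, Kit and Sca-1 had given MacLowKit+Sca1+ (n = 4), MacLowKit+Sca1- (n = 5), MacLowKit-Sca1- (n = 5) and MacHigh cells (n = 5), and unsorted cells made the fifth group (n = 5). The 3 MacLow groups are called Kit+Sca1+, Kit+Sca1- and Kit-Sca1- here. All groups were labelled as this leukaemia with both oncogenes, so no group was a normal control. Whether every cell of a group carried the oncogenes was not tested. The labels give neither the promoter of the NRAS transgene nor the age of the mice. The labels do not say whether replicates came from separate mice, so p-values measure the spread between these libraries. The comparisons ask how the populations of this leukaemia differ in the chains with which they can hold on to vessel wall, matrix and other cells.

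An integrin is a pair of an α and a β chain that spans the membrane. β2 pairs with αL to form LFA-1, which binds ICAM proteins, and with αM to form Mac-1, which binds ICAM-1, fibrinogen and complement fragment iC3b. α4 pairs with β1 to form VLA-4, the receptor for VCAM-1 and fibronectin that holds blood progenitors in the marrow, or with β7 to form the receptor for MAdCAM-1 that guides lymphocytes to the gut. α5 and β1 make the main fibronectin receptor, and α6 and β1 a laminin receptor. A chain without its partner is poorly carried to the cell surface, and RNA level is not surface level.

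In the RefSeq annotation of GRCm38.p6 (mm10), Itgam lies at chr7:128062640-128118491 and Itgal at chr7:127296139-127335137, both on the forward strand of the same chromosome. Itga6 (chr2:71786886-71858427) and Itga4 (chr2:79255426-79333114) are also on the forward strand, as are Itgb1 (chr8:128685654-128733579) and Itgb2 (chr10:77530329-77565708). Itgb7 (chr15:102215994-102233405) and Itga5 (chr15:103344286-103366791) lie on the reverse strand. The 250 bases before the start are shown for Itgam, the gene of the sort marker, and for Itgb7, the chain whose level varied most between the sorted groups other than Itgam. Each is printed 5′ to 3′ on the strand of its gene, with matches of GAGGAA, the core recognised by the myeloid factor PU.1, on either strand (TTCCTC on the other) in capitals. The Itgam window is chr7:128062390-128062639 on the forward strand and the Itgb7 window is chr15:102231936-102232185 on the reverse strand, before a transcript start that lies inside the span of the gene.
Itgam: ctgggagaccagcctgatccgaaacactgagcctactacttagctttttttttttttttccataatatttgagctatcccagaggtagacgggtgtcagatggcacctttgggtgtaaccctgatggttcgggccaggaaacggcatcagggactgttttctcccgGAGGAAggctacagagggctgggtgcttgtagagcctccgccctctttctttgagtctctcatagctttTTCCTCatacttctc
Itgb7: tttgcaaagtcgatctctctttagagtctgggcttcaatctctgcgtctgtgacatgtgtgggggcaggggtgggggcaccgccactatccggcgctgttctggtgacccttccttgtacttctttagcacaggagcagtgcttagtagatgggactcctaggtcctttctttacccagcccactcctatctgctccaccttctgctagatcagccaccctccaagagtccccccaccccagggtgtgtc
The Itgam window held 2 matches, whose first bases are 84 and 15 bases before the start, and the Itgb7 window held 0. Among the 5 chains with a promoter in the RefSeq table, 3 held a match (Itgam, Itgb1 and Itga5) and Itga4 and Itgb7 did not. The 6 letters occurred in 23.3% of 32851 promoter windows of this length, and a match is a description of letters and not of binding.

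The libraries summed to 445970 to 644381 FPKM. The genes of the other sort markers followed the labels: Kit averaged 34.3 ± 7.05 FPKM (SD, n = 4) in Kit+Sca1+ cells and 39.8 ± 8.44 (n = 5) in Kit+Sca1- cells, against 0.668 ± 0.158 (n = 5) in Kit-Sca1- cells. Ly6a, the gene of Sca-1, averaged 7.67 ± 1.71 FPKM (n = 4) in Kit+Sca1+ cells and 0.916 ± 0.450 (n = 5) in Kit+Sca1- cells. Markers of other cells moved with the groups. The summed FPKM of 9 dendritic cell markers (Itgae, an integrin chain, among them) was 380 to 687 in Kit+Sca1+ cells, 93.5 to 147 in MacHigh cells, 66.8 to 103 in unsorted, 14.8 to 51.8 in Kit-Sca1- cells and 14.2 to 82.2 in Kit+Sca1- libraries. The sum of 11 red pulp macrophage markers (Vcam1 among them) was 831 to 2101 in Kit+Sca1+ cells, 657 to 1169 in MacHigh cells and 456 to 567 in unsorted libraries, against 80.5 to 170 in Kit-Sca1- cells and 88.9 to 133 in Kit+Sca1- libraries. In Kit+Sca1+ cells, 0 of the 11 red pulp markers and 1 of the 9 dendritic markers averaged under 1 FPKM. The defining dendritic genes Xcr1 and Clec9a averaged 105 and 122 FPKM there, and Cd5l and Spic, which mark red pulp macrophages, 67.3 and 53.7. The sum of 10 T cell markers was 25.0 to 53.8 FPKM in Kit+Sca1+ libraries, 7.67 to 28.9 in Kit+Sca1-, 20.9 to 26.6 in Kit-Sca1-, 10.6 to 12.2 in MacHigh and 19.6 to 23.4 in unsorted libraries. In Kit+Sca1+ cells 5 of the 10 averaged under 1 FPKM. Cd3e and Cd3g, genes of the receptor complex, did so in all 5 groups. Of 7 tested, 4 were called higher and 1 lower in Kit+Sca1+ than in Kit+Sca1- cells, where 26.8% of all rows were higher and 28.5% lower. Erythroid markers (10 genes) set unsorted libraries apart, at 391.7 to 2077 FPKM against 18.8 to 147 in the sorted libraries. The part of these cells in the results was not tested, and in bulk RNA more cells of a type and more RNA per cell cannot be told apart.

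All 8 chains were expressed in every library: the lowest value was 7.77 FPKM, none was at the placeholder for 0, and all 8 passed the filter on low values. All 8 differed somewhere among the 4 sorted groups (moderated F test in limma, adjusted p between 1.42e-11 for Itgb1 and 0.0388 for Itga6), as did 83.2% of the 11599 rows tested. MacHigh cells had the highest mean for 6 of the 8 chains, against 25.2% of rows tested, and Kit+Sca1- cells the lowest for 4 of 8, against 27.5%. A total of 4 chains (Itgam, Itgb2, Itga5 and Itgb1) were called higher in MacHigh than in each of the 3 MacLow groups, against 10.4% of rows. Itgam is in both of these MacHigh counts through the sort on its protein, where it checks the gate and is no finding.

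**Figure D1:**
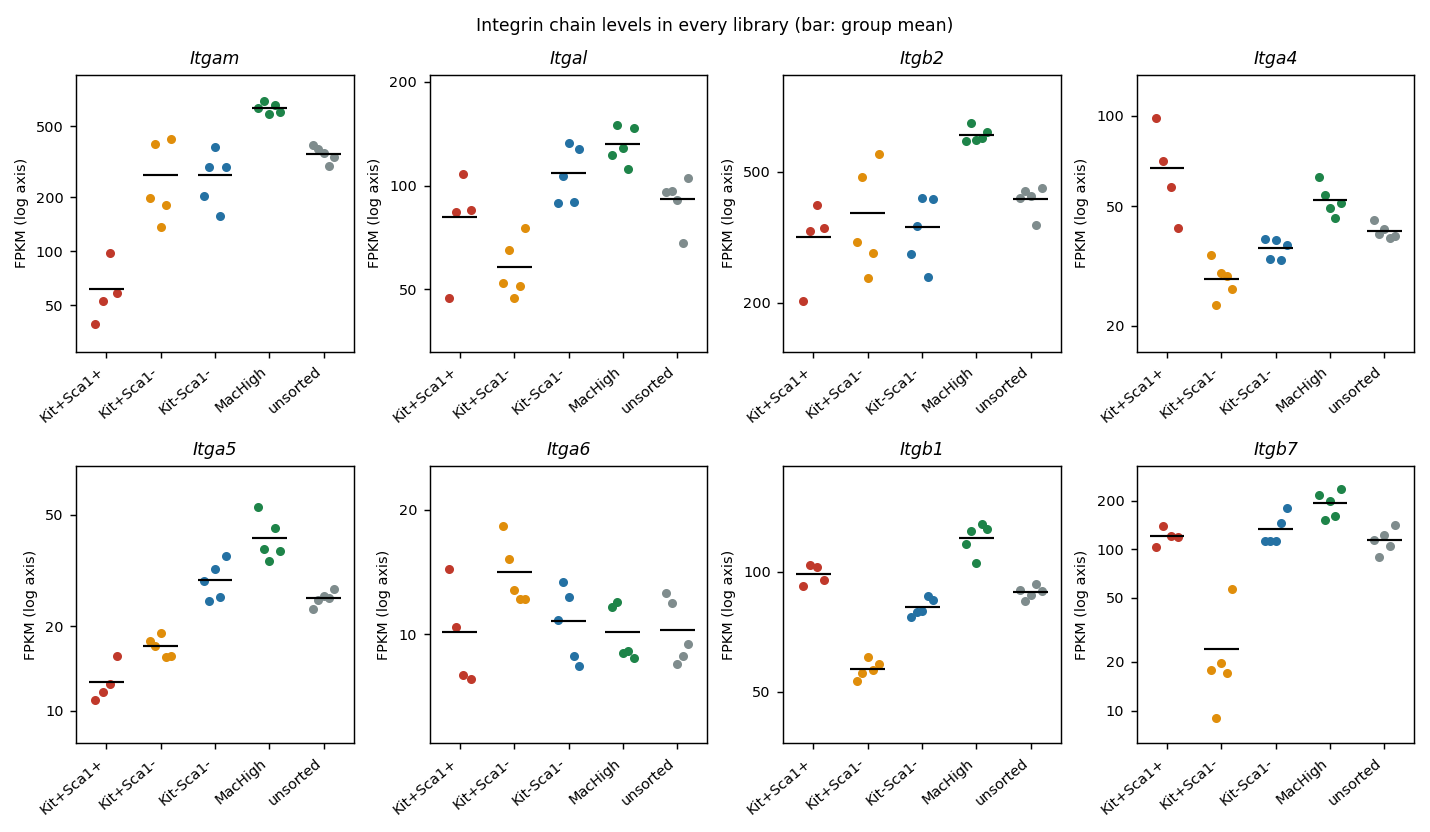
FPKM of the 8 integrin chains in each of the 24 libraries, by group, with 1 point per library and a bar at the group mean. MacHigh libraries lie above all others for Itgam and Itgb2, and Kit+Sca1- libraries lie lowest for Itgb1 and, but for 1 library, far below the rest for Itgb7.

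Itgam comes first, as the gene of the marker that defined the gates. It stood at 631, 693, 582, 659.5 and 600.0 FPKM in the 5 MacHigh libraries (633 ± 44.7, SD), above every other library. In the MacLow groups it was 39.2, 52.6, 98.0 and 58.1 FPKM in Kit+Sca1+ cells (62.0 ± 25.3), 199, 396, 137, 182 and 422 in Kit+Sca1- cells (267 ± 132) and 203, 296, 382, 158 and 295 in Kit-Sca1- cells (267 ± 87.9). Unsorted cells had a mean between MacHigh and MacLow cells, with libraries at 298 to 391.9 FPKM (351 ± 35.9, n = 5). The difference between MacHigh and MacLow cells checks the gate and is no finding.

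Within the MacLow gate, Kit+Sca1+ cells stood apart, with all 4 libraries below every other library. Their Itgam was lower than in Kit+Sca1- cells by a log2 difference of -2.03 ± 0.29 (SE, limma adjusted p = 3.61e-06) and than in Kit-Sca1- cells by -2.10 ± 0.29 (adjusted p = 3.76e-06). The summed FPKM of 9 mature myeloid markers was 359 to 818 in Kit+Sca1+ libraries against 956 to 2131 in all others. The sum does not stand for each of its markers. In Kit+Sca1+ cells 7 of the 9 were called lower and 1 higher than in Kit-Sca1- cells, where 23.3% of all rows were lower and 21.8% higher. Against Kit+Sca1- cells 5 were lower and 4 higher, where 28.5% of all rows were lower and 26.8% higher. Kit+Sca1- cells also had 7 of the 9 called lower and 1 higher than Kit-Sca1- cells (median log2 difference -2.69). Of all rows, 26.3% were lower and 24% higher there, and the sums overlapped (956 to 1566 against 1381 to 2131 FPKM). Itgam did not differ by the test between those groups. The part of these markers in the Itgam difference was not tested. Kit+Sca1- and Kit-Sca1- cells overlapped over most of their range (log2 difference -0.07 ± 0.27, adjusted p = 0.85). Neither differed by the test from unsorted cells, but the gap of Kit+Sca1- to unsorted cells passed without Kit+Sca1- replicate 2 (adjusted p = 0.044) or replicate 5 (adjusted p = 0.0309), the highest libraries of that group.

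Itgb2, the shared partner, lay at overlapping levels in the 3 MacLow groups. It measured 203, 331, 396 and 337 FPKM in Kit+Sca1+ cells (317 ± 81.3), 306, 481, 238, 283 and 565 in Kit+Sca1- cells (375 ± 141) and 280.2, 342, 417, 239 and 414 in Kit-Sca1- cells (338 ± 79.4). None of the differences between them passed the test (adjusted p between 0.451 and 0.731). MacHigh cells held 617, 703, 621, 632 and 657 FPKM (646 ± 35.4), above all 14 MacLow libraries, and exceeded Kit+Sca1+ cells by 1.07 ± 0.22 on the log2 scale (adjusted p = 0.000383). The gaps of MacHigh to Kit+Sca1- (adjusted p = 0.000965) and Kit-Sca1- cells (adjusted p = 0.000534) passed as well.

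Itgal, the αL chain of LFA-1, had its lowest mean in Kit+Sca1- cells and its highest in MacHigh cells. Kit+Sca1- cells held 52.3, 65.1, 47.3, 51.2 and 75.3 FPKM (58.3 ± 11.7) and Kit+Sca1+ cells 47.1, 83.8, 108 and 85.0 (80.9 ± 25.1). Kit-Sca1- cells held 88.8, 106, 133, 89.6 and 128 FPKM (109 ± 20.8) and MacHigh cells 122, 150.1, 128, 112 and 147 (132 ± 16.2), so these neighbours overlapped. Kit+Sca1- cells were lower than Kit-Sca1- cells by -0.90 in log2 (adjusted p = 0.000252) and than MacHigh cells by -1.18 (adjusted p = 5.37e-06), with no overlap in either. Kit-Sca1- and MacHigh cells did not differ by the test (log2 difference -0.28, adjusted p = 0.196), although they did when libraries were blocked by the beginning of their sample name (adjusted p = 0.00837). Kit+Sca1+ cells were lower than MacHigh cells by -0.75 ± 0.19 (adjusted p = 0.00261). Against Kit-Sca1- cells the gap of -0.47 only just passed (adjusted p = 0.0495) and was lost on leaving out any of 6 libraries (Kit-Sca1- replicates 2, 3 and 5 and Kit+Sca1+ replicates 1, 2 and 4). Without Kit+Sca1+ replicate 1, the lowest of its group, it was -0.23 (adjusted p = 0.28). It was also lost under quantile scaling (adjusted p = 0.14), in a fit of those 2 groups only (adjusted p = 0.122) and without a filter on low values (adjusted p = 0.098). Against Kit+Sca1- cells the difference of 0.43 did not pass (adjusted p = 0.0605; blocked, 0.31 with adjusted p = 0.0307).

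FPKM is scaled to transcript length, so chains can be set side by side. Itgal stood at 1.1995, 1.59, 1.101 and 1.46 times Itgam in the 4 Kit+Sca1+ libraries, the only libraries in which it exceeded Itgam. The ratio averaged 0.246 (0.164 to 0.345) in Kit+Sca1- cells, 0.430 (0.349 to 0.568) in Kit-Sca1- cells, 0.209 (0.170 to 0.244) in MacHigh cells and 0.260 (0.228 to 0.312) in unsorted cells. These ratios carry the Itgam gate in them and are descriptions.

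Itgb2 has further α partners, and Itgax (αX, CD11c) and Itgad (αD) are among the other integrin chains of the table. This sum of partners was drawn up after the values were seen. Itgam, Itgal, Itgax and Itgad together made 293 ± 81.7 FPKM (SD, n = 4) in Kit+Sca1+ cells, beside 317 for Itgb2. They summed to 335 ± 147 in Kit+Sca1- cells, 391 ± 107 in Kit-Sca1- cells and 862 ± 72.9 in MacHigh cells (n = 5 each). The make-up of that sum differed: Itgam was 21.0% ± 4.01 of it in Kit+Sca1+ cells and 67.4% to 78.2% on average in the other 4 groups. In Kit+Sca1+ cells Itgax made 36.4% ± 5.35, Itgal 27.4% ± 1.44 and Itgad 15.2% ± 7.83. Itgax, which marks dendritic cells and some macrophages, averaged 108 ± 36.9 FPKM there against 8.98 ± 7.74 in Kit+Sca1- cells (log2 difference 3.63 ± 0.36, adjusted p = 1.44e-08), and 94.1 ± 27.9 in MacHigh cells. Both groups with high Itgax are those with high sums of the dendritic and red pulp markers, whose part was not tested.

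Itga4, the α4 chain, was highest on average in Kit+Sca1+ cells, the group with the lowest Itgam. It measured 97.8, 70.7, 57.8 and 42.3 FPKM in Kit+Sca1+ cells (67.2 ± 23.5), the widest spread of any group for this chain. Kit+Sca1- cells held 34.5, 23.4, 29.9, 29.2 and 26.4 FPKM (28.6 ± 4.14) and Kit-Sca1- cells 38.7, 33.3, 38.6, 33.1 and 37.1 (36.2 ± 2.77), both wholly below Kit+Sca1+ cells. MacHigh cells held 62.5, 54.4, 49.1, 45.7 and 51.1 FPKM (52.6 ± 6.37) and unsorted cells 39.2 to 45.1 (41.3 ± 2.37). Kit+Sca1+ cells exceeded Kit+Sca1- cells by 1.15 ± 0.15 in log2 (adjusted p = 1.45e-06), Kit-Sca1- cells by 0.81 (adjusted p = 0.000171) and unsorted cells by 0.63 (adjusted p = 0.00298). They overlapped with MacHigh cells, and the difference of 0.29 ± 0.15 did not pass (adjusted p = 0.129). It was 0.49 with adjusted p = 0.00552 without Kit+Sca1+ replicate 4, the lowest library of that group. MacHigh cells exceeded Kit+Sca1- cells (0.86 in log2, adjusted p = 2.22e-05) and Kit-Sca1- cells (0.52, adjusted p = 0.00475). The second of these calls was lost when libraries were rescaled to the same FPKM sum (adjusted p = 0.0736). Kit+Sca1- cells lay below Kit-Sca1- cells by -0.33 (adjusted p = 0.0601; blocked, adjusted p = 0.0397).

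Itga5, the α5 chain of the fibronectin receptor, climbed in the order Kit+Sca1+, Kit+Sca1-, Kit-Sca1-, MacHigh. It stood at 11.0, 11.7, 12.5 and 15.7 FPKM in Kit+Sca1+ cells (12.7 ± 2.11), 17.7, 17.0, 19.0, 15.5 and 15.8 in Kit+Sca1- cells (17.0 ± 1.42) and 29.1, 24.7, 32.04, 25.4 and 35.6 in Kit-Sca1- cells (29.4 ± 4.58). MacHigh cells held 53.3, 37.8, 34.1, 44.9 and 37.1 FPKM (41.4 ± 7.71). All 6 comparisons among the sorted groups passed the test, which held for no other chain but Itgb1. The log2 differences were -1.62 ± 0.12 from Kit+Sca1+ to MacHigh cells (adjusted p = 3.96e-10), -0.40 from Kit+Sca1+ to Kit+Sca1- cells (adjusted p = 0.00785) and -0.48 from Kit-Sca1- to MacHigh cells (adjusted p = 0.00145). Libraries of the Kit+Sca1+ and Kit+Sca1- groups touched at 15.5 to 15.7 FPKM, and those of Kit-Sca1- and MacHigh cells overlapped at 34.1 to 35.6. Both Kit+ groups lay wholly below Kit-Sca1-, MacHigh and unsorted cells (23.03 to 27.2 FPKM).

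Kit+Sca1+ cells thus had the highest mean of Itga4 and the lowest of Itga5. The ratio of Itga4 to Itga5 averaged 5.58 ± 2.62 (2.69 to 8.92) in Kit+Sca1+ libraries, above every other library. It averaged 1.69 in Kit+Sca1- cells, 1.25 in Kit-Sca1- cells, 1.29 in MacHigh cells and 1.65 in unsorted cells, with a highest single value of 1.96.

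Itgb1, the β1 partner of α4, α5 and α6, had replicates close together in every group. It measured 118, 127, 105, 132 and 128 FPKM in MacHigh cells (122 ± 10.8) and 92.1, 103.9, 103.0 and 95.2 in Kit+Sca1+ cells (98.6 ± 5.83). Kit-Sca1- cells held 76.8, 79.2, 79.9, 87.2 and 84.9 FPKM (81.6 ± 4.30) and Kit+Sca1- cells 53.1, 55.6, 61.3, 56.8 and 58.6 (57.1 ± 3.09). The 4 groups did not overlap in any library. Kit+Sca1- cells were lower than MacHigh cells by -1.08 ± 0.06 in log2 (adjusted p = 2.13e-12), and than Kit-Sca1- cells by -0.51 (adjusted p = 7.67e-07), and Kit+Sca1+ cells exceeded them by 0.78 ± 0.07 (adjusted p = 2.16e-09). The gap of Kit+Sca1+ to MacHigh cells was smaller (-0.30 ± 0.07, adjusted p = 0.000891) and was lost on rescaling to the same FPKM sum (adjusted p = 0.157). Unsorted cells (84.3 to 93.5 FPKM) overlapped with Kit+Sca1+ and Kit-Sca1- cells.

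Itga6, the laminin-binding α6 chain, had the lowest mean of the 8 in every group and the smallest range of group means. It lay at 7.77 to 14.4 FPKM in Kit+Sca1+ cells (10.1 ± 3.07), 12.1 to 18.3 in Kit+Sca1- cells (14.1 ± 2.65), 8.38 to 13.4 in Kit-Sca1- cells (10.7 ± 2.14), 8.77 to 11.9 in MacHigh (10.1 ± 1.56) and 8.44 to 12.6 in unsorted cells (10.2 ± 1.88). All 5 Kit+Sca1- libraries exceeded the 5 MacHigh libraries, and this was the only chain with its highest mean in Kit+Sca1- cells. The log2 difference was 0.44 ± 0.16 over MacHigh (adjusted p = 0.0202), 0.43 over unsorted (adjusted p = 0.033) and 0.46 ± 0.17 over Kit+Sca1+ cells (adjusted p = 0.0245). These calls were near the threshold: the first had adjusted p = 0.0695 without Kit+Sca1- replicate 1 and 0.0508 without MacHigh replicate 5, the second 0.0645 without a filter on low values, and the third 0.0653 in a fit of those 2 groups only. The second was also lost on leaving out any of unsorted replicates 3, 4 and 5 and Kit+Sca1- replicates 1 and 2 (adjusted p up to 0.104), and the third on leaving out any of Kit+Sca1- replicates 1 and 2 and Kit+Sca1+ replicates 3 and 4 (up to 0.0994). Over Kit-Sca1- cells the difference was 0.37 (adjusted p = 0.0601; blocked, 0.46 with adjusted p = 0.000518).

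**Figure D2:**
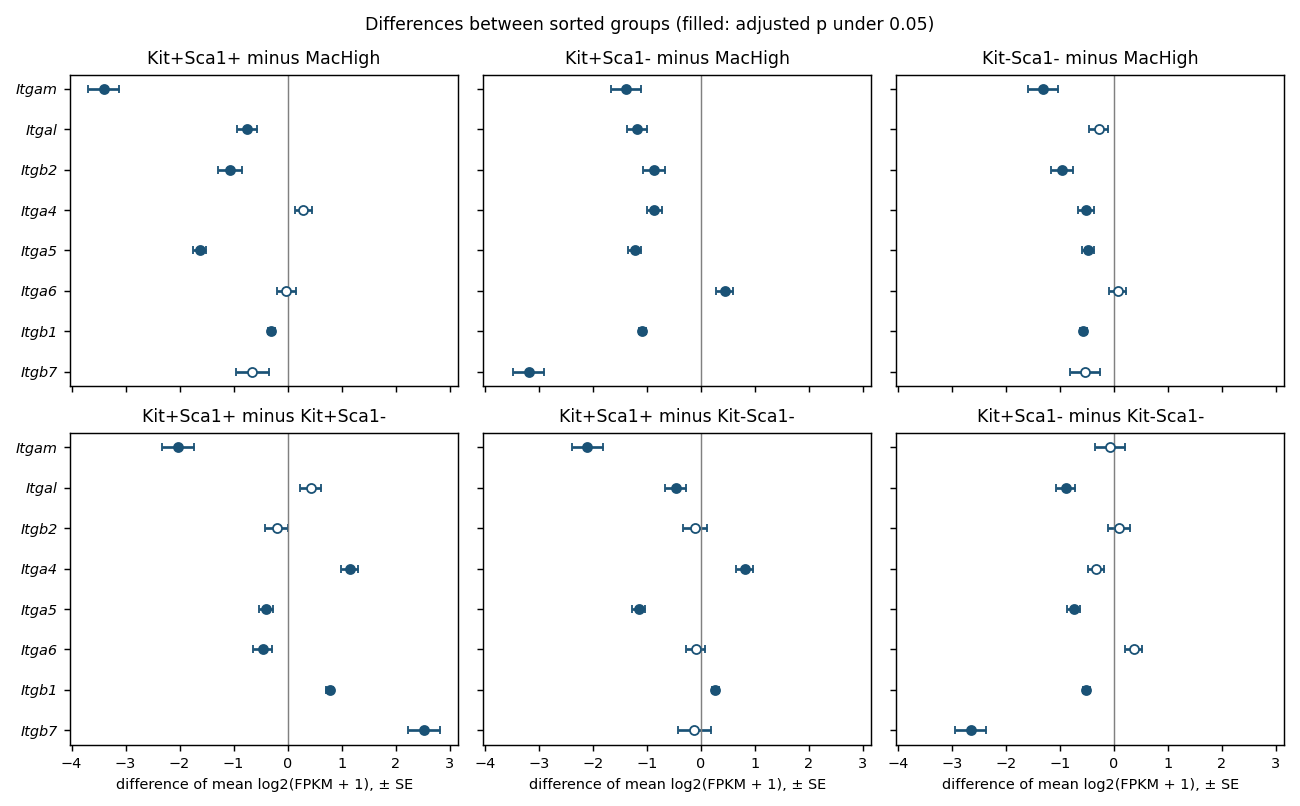
Log2 differences of the 8 chains between the sorted groups, with bars of 1 standard error from the limma fit. In Kit+Sca1- against MacHigh cells Itgb7 lies furthest below 0 (-3.18), and Itga6 alone lies above 0.

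Itgb7, the β7 chain, set Kit+Sca1- cells apart from all others. It measured 17.8, 8.97, 19.7, 17.0 and 56.7 FPKM there (24.03 ± 18.7), and the library at 56.7, replicate 5, lay far above the other 4. Every library of the other groups was higher: 103, 140.1, 121 and 118 FPKM in Kit+Sca1+ cells (121 ± 15.3), 113, 113, 112, 146 and 181 in Kit-Sca1- cells (133 ± 30.4) and 215, 152, 198, 160.3 and 234 in MacHigh cells (192 ± 35.3). Unsorted cells held 89.2 to 141 FPKM (114 ± 19.3, n = 5). Kit+Sca1- cells were lower than MacHigh cells by -3.18 ± 0.28 in log2 (adjusted p = 1.66e-09) and than Kit-Sca1- cells by -2.65 ± 0.28 (adjusted p = 8.19e-08), and Kit+Sca1+ cells were higher than them by 2.53 ± 0.30 (adjusted p = 2.5e-07). Without replicate 5 the mean was 15.9 ± 4.73 FPKM (n = 4) and the same differences were -3.55 ± 0.19, -3.02 and 2.90 ± 0.20. That library also had the highest sums of its group for T cell markers (28.9 FPKM against 7.67 to 15.2), NK cell markers (24.1 against 7.88 to 19.0) and dendritic markers (82.2 against 14.2 to 32.1), whose part in its Itgb7 value was not tested. Over the groups, the sum of 8 NK cell markers was 7.88 to 24.1 FPKM in Kit+Sca1- libraries against 28.8 to 175 in all others. All 8 were called lower than in Kit-Sca1- cells (26.3% of all rows were) and 7 of 8 lower than in Kit+Sca1+ cells (26.8%). Against MacHigh cells 4 were higher and 3 lower, where 32.5% of all rows were higher and 30.3% lower. Their part in the Itgb7 difference was not tested.

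Among the other 3 sorted groups Itgb7 differed less. Kit+Sca1+ and Kit-Sca1- cells overlapped (log2 difference -0.12, adjusted p = 0.775). Kit-Sca1- cells overlapped with MacHigh cells as well (-0.53, adjusted p = 0.12; blocked, adjusted p = 0.0427). Kit+Sca1+ libraries lay below all MacHigh libraries, but the difference of -0.65 ± 0.30 did not pass (adjusted p = 0.0798). It passed in a fit of those 2 groups only (SE 0.144, adjusted p = 0.0046) and with the block on sample-name beginning (adjusted p = 0.0299), although same-named libraries did not all deviate together in that comparison.

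Of the β partners of α4, β7 exceeded β1 in all groups but Kit+Sca1- cells. The ratio of Itgb7 to Itgb1 averaged 0.417 ± 0.316 (0.161 to 0.968) in Kit+Sca1- libraries, below 1 in all 5. It averaged 1.22 (1.12 to 1.35) in Kit+Sca1+ cells, 1.62 (1.41 to 2.13) in Kit-Sca1- cells, 1.59 (1.198 to 1.88) in MacHigh cells and 1.29 (1.06 to 1.58) in unsorted cells, above 1 in all 19 libraries. The ratio of Itga6 to Itga4, 2 α chains that share β1, averaged 0.497 (0.416 to 0.651) in Kit+Sca1- cells against 0.154 (0.138 to 0.184) in Kit+Sca1+ cells.

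**Figure D3:**
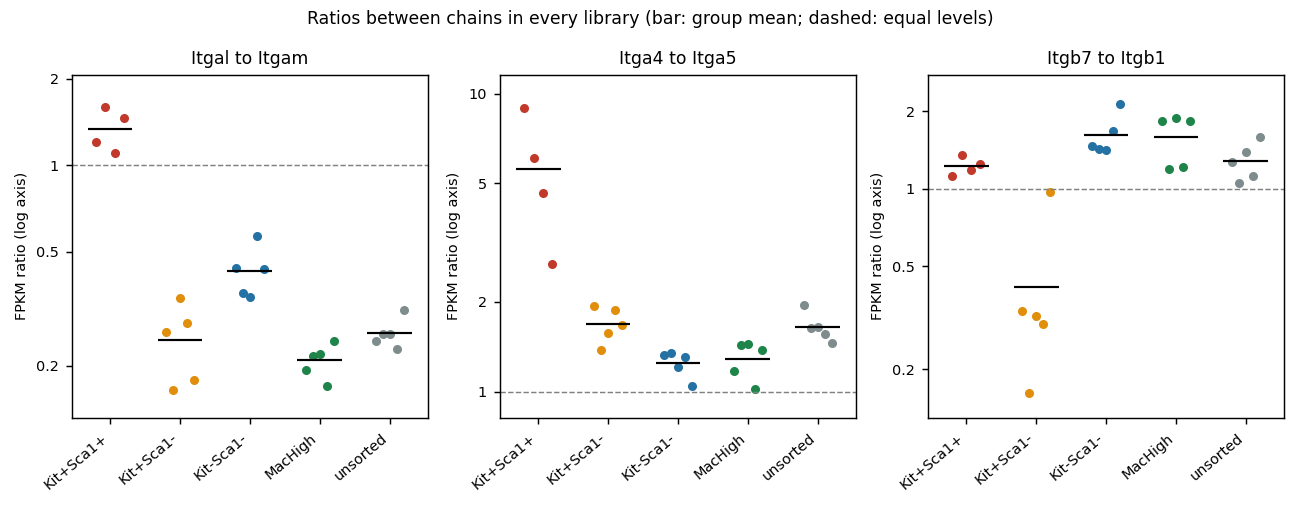
Ratios of FPKM between pairs of chains in each library on a log axis, with 1 point per library. Itgal to Itgam and Itga4 to Itga5 are highest in the 4 Kit+Sca1+ libraries, and Itgb7 to Itgb1 is lowest in the 5 Kit+Sca1- libraries.

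Against MacHigh cells, the chains were mostly lower in each MacLow gate, and the count is read beside the share of all 11599 rows that behaved alike. In Kit+Sca1+ cells 5 of the 8 chains were lower and 0 higher, where 46.0% of rows were called, 22.4% lower and 23.6% higher, and 6 chains had groups that did not overlap (37.5% of rows). In Kit+Sca1- cells 7 were lower and 1 higher, where 62.8% of rows were called, 30.3% lower and 32.5% higher, and all 8 did not overlap (45.0%). In Kit-Sca1- cells 5 were lower and 0 higher, where 50.8% of rows were called, 26.2% lower and 24.5% higher, and 4 did not overlap (35.7%). The Itgam gate enters each of these counts, and the comparisons share MacHigh libraries.

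Among the MacLow gates the chains went both ways. Kit+Sca1+ cells had 3 higher than Kit+Sca1- cells (Itga4, Itgb1, Itgb7) and 3 lower (Itgam, Itga5, Itga6), where 55.2% of rows were called, 26.8% higher and 28.5% lower, and 4 did not overlap (39.4% of rows). They had 2 higher than Kit-Sca1- cells (Itga4, Itgb1) and 3 lower (Itgam, Itgal, Itga5), where 45.2% of rows were called, 21.8% higher and 23.3% lower, and 4 did not overlap (33.8%). Kit+Sca1- cells had 0 higher than Kit-Sca1- cells and 4 lower (Itgal, Itga5, Itgb1, Itgb7), where 50.2% of rows were called, 24% higher and 26.3% lower, and 4 did not overlap (28.8%).

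Against unsorted cells, MacHigh cells had 6 chains higher and 0 lower, where 39.4% of rows were called, 21.3% higher and 18.2% lower, and 7 did not overlap (31.7% of rows). Itga5 (0.68 in log2, adjusted p = 0.000109) and Itgb1 (0.45, adjusted p = 2.08e-05) had the lowest p. On rescaling to the same FPKM sum, which took the median of all rows there from 0.02 to -0.147, Itgal, Itgb2 and Itgb7 no longer passed (adjusted p between 0.0515 and 0.117) and 3 chains stayed called. Itgal and Itgb7 were also lost under quantile scaling (adjusted p = 0.0534 and 0.072) and without a filter on low values (adjusted p = 0.0506 and 0.0932). Leaving out a single library lost the call of Itgal (any of unsorted replicate 4 and MacHigh replicates 2 and 5, adjusted p up to 0.0732) and of Itgb7 (any of unsorted replicates 1 to 4 and MacHigh replicates 1, 3 and 5, up to 0.0968). Of the erythroid markers, higher in unsorted libraries, 9 of 10 were called lower in MacHigh cells, and 6 of 8 tested platelet markers were lower, whose part in these differences was not tested. Kit+Sca1- cells had 5 lower and 1 higher than unsorted cells, where 47.4% of rows were called, 23.8% lower and 23.6% higher, and 4 did not overlap (32.3%). The call of Itga4 there was lost on rescaling to the same FPKM sum (-0.39, adjusted p = 0.0932). Kit+Sca1+ cells had 2 lower and 1 higher, where 33.0% of rows were called, 15.7% lower and 17.2% higher, and 2 did not overlap (30.2%). With the block on sample-name beginning 5 chains were called in that comparison, with Itgb1 (adjusted p = 0.0335) and Itgb2 (adjusted p = 0.0207) added. Kit-Sca1- cells differed from unsorted cells in 0 of 8 chains by limma, with 0 at an unadjusted p under 0.05, where 14.6% of rows were called, 5.67% higher and 8.91% lower, and 1 did not overlap (13.3%). The rows called there went from 1692 to 3115 with the block and to 1114 without Kit-Sca1- replicate 4.

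Within groups, the β2 chains moved together from library to library. Over the 24 libraries Pearson's r on the log2 scale was 0.798 for Itgam with Itgb2 and 0.722 for Itgal with Itgb2, and it was 0.943 and 0.893 over deviations from the group means. Itgb1 and Itgb7 correlated over all 24 libraries (0.860) but less within groups (0.245), and likewise Itgam and Itga5 (0.803 and 0.098). Libraries of a group share their gate, and these values are descriptions. Itgam was highest in the library whose sample name begins with 26 in MacHigh, Kit-Sca1- and Kit+Sca1+ cells. Itgb7 was highest in the library beginning with R in unsorted, MacHigh, Kit-Sca1- and Kit+Sca1- cells.

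The rows most like each chain over the 24 libraries, among 9098 searched, were named by their correlation alone. For Itgam these were Slc16a3 (r = 0.972), a lactate transporter, and Gas7 (0.972). Itgal was closest to Klc1 (0.940), Prr13 (0.928) and Snx20 (0.924), and Itgb2 to Ski (0.950), Ap2a2 (0.937) and Cap1 (0.934). Itga4 had Parp9 (0.926), Ephx1 (0.905) and Clasp2 (0.905), and Itga5 had Ggh (0.945), Zdhhc7 (0.942) and Tstd3 (0.940). Itgb1 had Prcp (0.972), Qpct (0.972) and Cttnbp2nl (0.971). Itgb7 had the closest match of all, Kctd14 (0.986), then Ifi30 (0.982), a thiol reductase of antigen processing, and Map4k4 (0.979). Itga6 had the weakest, Edc3 (0.858), Stag2 (0.844) and Trpm7 (0.841).

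Of 19 other integrin chains with a row, 11 were tested. Between Kit+Sca1+ and Kit+Sca1- cells 7 of these were higher and 2 lower, where 26.8% of all rows were higher and 28.5% lower, with a median log2 difference of 1.69 against -0.02 over all rows. Itgae, the αE chain that pairs with β7 to bind E-cadherin, averaged 44.9 ± 9.17 FPKM in Kit+Sca1+ cells and 0.921 ± 0.370 in Kit+Sca1- cells (log2 difference 4.58 ± 0.20, adjusted p = 1.55e-14). It was 1.00 ± 0.704 in MacHigh cells and 0.601 ± 0.253 in Kit-Sca1- cells, where Itgb7 was above 112 FPKM in every library. Itgad, a β2 partner, averaged 41.9 ± 20.6 FPKM in Kit+Sca1+ cells and 3.25 ± 0.919 in MacHigh cells (3.26 ± 0.22, adjusted p = 8.82e-11). Itga9 (5.71 ± 2.92 FPKM) was also highest there. Itga1, a collagen receptor chain that pairs with β1, was highest in Kit-Sca1- cells at 26.0 ± 5.84 FPKM against 11.0 ± 1.00 in MacHigh cells (1.15 ± 0.18, adjusted p = 1.67e-05). Itgb5 was highest in MacHigh cells (17.1 ± 7.86 FPKM) and averaged 0.454 ± 0.149 in Kit+Sca1- cells. Itgb2l, a β2-like chain of neutrophils, was highest in Kit+Sca1- cells at 138 ± 71.1 FPKM (44.3 ± 23.2 in MacHigh; 1.58 ± 0.44, adjusted p = 0.00347). Itgae is among the dendritic markers whose sum was highest in Kit+Sca1+ cells, and their part in these chains was not tested.

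**Figure D4:**
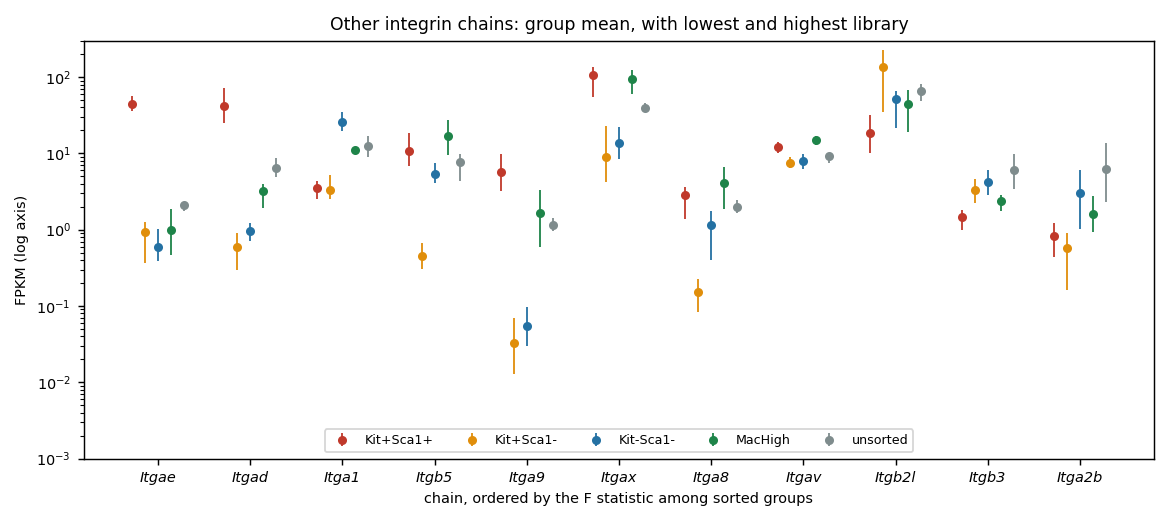
FPKM of the 11 tested other integrin chains on a log axis, by group, with a point at the group mean and a bar from the lowest to the highest library. Itgae and Itgad stand far higher in the 4 Kit+Sca1+ libraries than in the other groups, Itgax is high in Kit+Sca1+ and MacHigh libraries, and Itgb2l is highest on average in Kit+Sca1- libraries.

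RNA of genes listed for integrin activation and adaptors was mostly higher in MacHigh cells. Of 27 tested genes of integrin activation and adaptors, 20 were lower and 3 higher in Kit+Sca1+ than in MacHigh cells, 18 lower and 2 higher in Kit+Sca1- cells, and 20 lower and 2 higher in Kit-Sca1- cells. Of all rows, 22.4% were lower and 23.6% higher in the first comparison, 30.3% and 32.5% in the second, and 26.2% and 24.5% in the third. Median log2 differences were -0.60, -0.46 and -0.52, against 0.03, 0.03 and -0.02 over all rows. Rap1b, a GTPase that signals to integrins, averaged 396 ± 24.6 FPKM in MacHigh cells and 174 ± 6.48 in Kit+Sca1+ cells (-1.18 ± 0.09, adjusted p = 3.89e-10). Its effector Apbb1ip averaged 127 ± 6.26 in MacHigh cells and 69.9 ± 2.30 in Kit+Sca1+ cells (-0.85 ± 0.08, adjusted p = 6.44e-09). Fyb, an adaptor of inside-out signalling, was 126.5 ± 17.0 FPKM in MacHigh cells and 12.1 ± 4.25 in Kit+Sca1- cells (-3.34 ± 0.21, adjusted p = 6.45e-12), the Src-family kinase Lyn 214 ± 19.8 against 66.9 ± 11.9, and Parvb 23.1 ± 4.91 against 1.52 ± 0.513. Tln1, talin, which binds β tails, differed less, at 299 ± 7.95 FPKM in MacHigh against 198 to 237.5 on average in the MacLow groups, and Fermt3, kindlin-3, averaged 174 to 231 in the 4 sorted groups. Rasgrp2, of the same list, went the other way, with its lowest mean in MacHigh cells (42.3 ± 13.0 FPKM). It averaged 131 ± 33.4 in Kit+Sca1- cells (1.61 ± 0.21, limma adjusted p = 6.09e-07). Kit-Sca1- cells held 70.0 ± 12.0 (0.74 ± 0.21, adjusted p = 0.00539) and Kit+Sca1+ cells 62.2 ± 16.4 (0.55 ± 0.22, adjusted p = 0.0467).

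Of 14 tested ligands and counter-receptors, 8 were lower and 1 higher in Kit+Sca1+ than in MacHigh cells, 10 lower and 3 higher in Kit+Sca1- cells, and 8 lower and 1 higher in Kit-Sca1- cells. The shares of all rows were again 22.4% lower and 23.6% higher, 30.3% and 32.5%, and 26.2% and 24.5%, and the medians of the 14 were -0.86, -1.35 and -0.76 in log2. Fn1, fibronectin, the ligand of α5β1 and α4β1, averaged 241 ± 100 FPKM in MacHigh cells and 75.8 ± 18.5 in Kit-Sca1- cells, against 2.98 ± 1.61 in Kit+Sca1+ cells and 2.33 ± 1.70 in Kit+Sca1- cells. Spp1, osteopontin, followed the same order of groups (226 ± 40.2, 155 ± 16.1, 32.1 ± 7.80 and 18.9 ± 4.47 FPKM), as did Thbs1 but for the last pair. Vcam1, the counter-receptor of α4β1, was the 1 ligand higher in Kit+Sca1+ cells, at 198 ± 106 FPKM against 7.13 ± 4.199 in MacHigh cells (4.62 ± 0.36, adjusted p = 6.44e-10), and is itself a red pulp macrophage marker. Icam1, which LFA-1 and Mac-1 bind, averaged 69.2 ± 3.30 in Kit+Sca1+ cells, 65.7 ± 12.6 in MacHigh cells, 28.3 ± 7.72 in Kit-Sca1- cells and 11.0 ± 2.91 in Kit+Sca1- cells.

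Among 14 tetraspanins and other lateral partners, 4 were lower and 3 higher in Kit+Sca1+ than in MacHigh cells, and 7 lower and 4 higher of the 13 with an estimate in Kit+Sca1- cells. The first count lies near the share of all rows (22.4% lower, 23.6% higher), and in the second 30.3% of all rows were lower and 32.5% higher. Cd63, a tetraspanin of granules and lysosomes, stood at 83.2 ± 8.29 FPKM in Kit+Sca1- cells and 9.44 ± 3.49 in MacHigh cells (3.07 ± 0.25, adjusted p = 3.12e-10). Cd81, a partner of α4β1, averaged 182 ± 41.2 in Kit+Sca1+ cells, 122 ± 13.95 in Kit+Sca1- cells, 91.7 ± 11.4 in MacHigh cells and 46.5 ± 6.64 in Kit-Sca1- cells. Cd36, which binds thrombospondin, averaged 70.4 ± 17.0 in Kit+Sca1+ cells, 38.0 ± 11.2 in MacHigh cells and 5.04 ± 4.39 in Kit+Sca1- cells.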

How the data were processed

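The authors deposited 1 table of FPKM, that is fragments per kilobase of transcript scaled to the mapped fragments of the library, with 23361 gene rows and 24 library columns. Per the submitters' processing notes it was made with TopHat2 2.0.4 and Cuffdiff on mm10. The annotation and any scaling between libraries are not given in the sources used here. A value of 0.001 fills rows that would be 0 (5037 rows hold it in every library). Read counts were not used here, so depth and counting error are unknown, and the replicate spread is the error. No 2 libraries were identical (highest correlation 0.9753).

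Groups came from sample titles. Values were taken as log2(FPKM + 1), and tests covered the 11599 rows that reached 1 FPKM in 4 libraries or more. limma 3.58.1 in R 4.3.3 fitted the 5 groups over all 24 libraries, with a variance trend on the mean. Calls needed p under 0.05 after Benjamini-Hochberg adjustment over the rows of a comparison. The fit was checked on simulated data. Adding 1 FPKM understates changes of low genes.

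The sample names begin with 11, 12, 26, L, N or R, and these recur across groups without a stated meaning. Libraries with the same beginning deviated together (correlation over 0.1) in 34 of 38 pairs, and in every pair of 7 of the 10 comparisons. Blocked values stand beside results whose call they change. The replicate numbers in the titles go with these beginnings between MacHigh and Kit+Sca1- cells, but they did not pair the libraries over all groups.

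The 8 chains, the gene lists and the tests were chosen with earlier results of these data known. Named are the 8 chains, the 3 rows most correlated with each, and the 5 genes of each list with the largest F statistic. Some genes that this rule names are not reported here. Itgax, Itgb2l, Tln1, Fermt3, Rasgrp2 and the genes given from the marker lists were added after their values were seen. Alternatives were pseudocounts, no filter, other scalings, blocks, other groups in the fit and leaving out each library. Promoters are from RefSeq (GRCm38.p6), which held 5 of the 8 chains. Analyses also used Python 3.11.15.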

Additional observations from a re-analysis of the deposited data

Results flagged for a closer look

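A library stood outside its group in 2 of the 40 sets of 4 or 5 libraries (8 chains in 5 groups), and chance flags about 1 in 20 such sets. Itgb7 in Kit+Sca1- replicate 5 was 56.7 FPKM where the other 4 libraries held 8.97 to 19.7, a gap of 0.776 of the range against a limit of 0.710. Itgb2 in unsorted replicate 4 was 345 FPKM where the others held 416 to 444, a gap of 0.711 of the range, and the mean without it was 429 ± 13.6 FPKM (SD, n = 4).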

How the results depend on the processing

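Of 1328 values of single chains under an alternative, 1222 kept direction and side of the threshold, 42 lost a call, 30 gained one and 34 changed sign, all 34 for differences that were not called. With the replicate block on sample-name beginning, the chains called in Kit+Sca1+ against unsorted cells went from 3 to 5, and the rows called in Kit-Sca1- against unsorted cells from 1692 to 3115 (1114 without Kit-Sca1- replicate 4, to 2142, on leaving out single libraries). Quantile scaling called 1 chain, Itgb1, in that comparison, and rescaling to the same FPKM sum left 3 in MacHigh against unsorted cells. That rescaling took the median of all rows from 0.03 to 0.323 in Kit+Sca1- against MacHigh cells. The cause was not tested. Signs changed under quantile scaling for Itgb2 (0.091) and Itgb7 (0.016) in Kit+Sca1+ against Kit-Sca1- cells and Itgam in Kit+Sca1- against Kit-Sca1- cells (0.018). They changed under rescaling for Itga6 in Kit+Sca1+ against MacHigh (0.086), Itgam in Kit+Sca1- against Kit-Sca1- (0.16) and Itga6 in Kit-Sca1- against unsorted cells (-0.027). Under the replicate block on sample-name beginning they changed for Itga6 in Kit-Sca1- against MacHigh (-0.021) and unsorted cells (-0.043), and with title numbers as the replicate block for Itgb7 in Kit+Sca1+ against Kit-Sca1- cells (0.041).

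Leaving out single libraries took Itga6 from -0.0754 to 0.0558 in MacHigh against unsorted, from -0.189 to 0.0802 in Kit+Sca1+ against MacHigh, from -0.263 to 0.0068 against Kit-Sca1- and from -0.206 to 0.0641 against unsorted cells. In Kit-Sca1- cells Itga6 ranged from -0.00435 to 0.149 against MacHigh and from -0.0204 to 0.133 against unsorted cells. Itgal in Kit+Sca1+ against unsorted cells ranged from -0.373 to 0.0197, Itgam in Kit+Sca1- against Kit-Sca1- cells from -0.271 to 0.133, Itgb2 in the same from -0.0674 to 0.244, and Itgb2 in Kit+Sca1+ against Kit-Sca1- cells from -0.225 to 0.0955. Depth is unknown, so no limit from counting can be given.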
